A study of Mus musculus with 85 samples.

Results

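The step between the late 4-cell stage and the early 8-cell stage of the mouse embryo was described from 7 sequencing libraries of 85 in the series. They were the 3 libraries titled early 8-cell, collected 66 h after the hCG injection that times ovulation, and the 4 libraries titled late 4-cell, collected at 62 h. The libraries were chosen by these titles and by their culture in the standard medium, and no measured value entered the choice. All embryos were labelled wild type, of the B6C3F1/J strain, and were grown in KSOM with 5 mM lactate, 0.2 mM pyruvate and 0.2 mM glucose. The 45 libraries in standard medium, from 34 to 114 h, shared one estimate of spread, and the other 40 libraries of the series, in altered media, were not used. The labels do not give the number of embryos in a library or say that libraries came from separate matings, so p-values measure the spread between these libraries, which may be partly technical.

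During these hours the blastomeres divide again. Transcripts that the oocyte stored are being cleared, and transcription from the embryo's own genome has already begun. Junction, cytoskeletal and lineage genes are used at compaction and in the first choice between trophectoderm and inner cell mass. Compaction itself follows later in the 8-cell stage. Libraries are labelled by embryo stage and not by cell, so fewer cells expressing a gene and less RNA per cell cannot be told apart.

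RNA was read with Smart-seq2, in which reverse transcription starts from poly(A) tails, and levels are given as CPM, the reads of a gene scaled to the library's total. Estimated depth was 13.7 to 33.4 M reads in early 8-cell libraries and 15.9 to 32.7 M reads in late 4-cell libraries. Embryo markers were detected in every library, among them Dppa5a, at 4912 to 5334 CPM in early 8-cell and 3475 to 4768 CPM in late 4-cell libraries, and Sox15, at 1375 to 1721 CPM in early 8-cell and 1134 to 1330 CPM in late 4-cell libraries. Of 13 cumulus and granulosa cell markers, 12 stayed under 1 CPM in all 7 libraries, and the list summed to at most 0.481 CPM in early 8-cell and 1.70 CPM in late 4-cell libraries. Sperm markers summed to at most 0.185 CPM in early 8-cell and 1.20 CPM in late 4-cell libraries, and oviduct markers to 2.76 to 4.21 CPM in early 8-cell and 0.703 to 1.58 CPM in late 4-cell libraries. Blood and endothelial markers summed to 64.0 to 80.7 CPM in early 8-cell and 104 to 118 CPM in late 4-cell libraries. One library stood apart: mitochondrially encoded genes held 0.844% of late 4-cell library 4, against 3.95 to 5.69% of the other 6 libraries. The part of these differences in the results was not tested, and results that rest on late 4-cell library 4 are given with and without it.

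Fewer genes passed across this step than across the one before it, which spans a longer interval. Between early 8-cell and late 4-cell libraries, 1501 of 20159 genes tested passed the threshold (adjusted p under 0.05, limma on log2(CPM + 1), 45 libraries). Of these, 491 were higher in early 8-cell embryos, 2.44% of the genes tested, and 1010 were lower, 5.01%. The direction split depended on scaling, with 603 higher and 803 lower under quantile scaling and 680 higher and 861 lower after a trend with transcript length was removed. By comparison 40.0% of genes passed between late 4-cell (62 h) and early 4-cell (55 h) embryos and 7.13% between late 8-cell (74 h) and early 8-cell embryos; these steps share libraries with the one described, so only their sizes are set side by side. The median absolute log2 change over all genes was 0.23 here, 0.42 in the step before and 0.27 in the step after. The intervals are unequal (62 to 66 h here, 55 to 62 h before and 66 to 74 h after), so these sizes are not rates. A line was drawn through the means of the early 4-cell (0) and late 8-cell (1) groups over 6496 genes. These genes differed between those end groups in the 45-library fit, where the 7 libraries entered the filter and the shared spread. Early 8-cell libraries lay at 0.741, 0.739 and 0.757 on this line, and late 4-cell libraries at 0.544, 0.538, 0.524 and 0.551.

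The number of calls depended on which libraries set the spread. With only the 7 libraries in the fit, 219 genes passed (62 higher and 157 lower), of which 207 were also among the 1501, all in the same direction. Without late 4-cell library 4 in the larger fit, 1257 passed (412 higher and 845 lower), and 1065 of the 1501 were among them. A core of 109 genes, 30 higher and 79 lower in early 8-cell embryos, passed in all 19 settings tried. This core was drawn up after the values were seen, and many of the genes described further on belong to it. In none of the 109 did the groups overlap, while 13.4% of all genes tested had no overlap. Lack of overlap in a gene picked from the core therefore follows from the choice. The plot of change against level shows where the core genes lie.

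**Figure D1:**
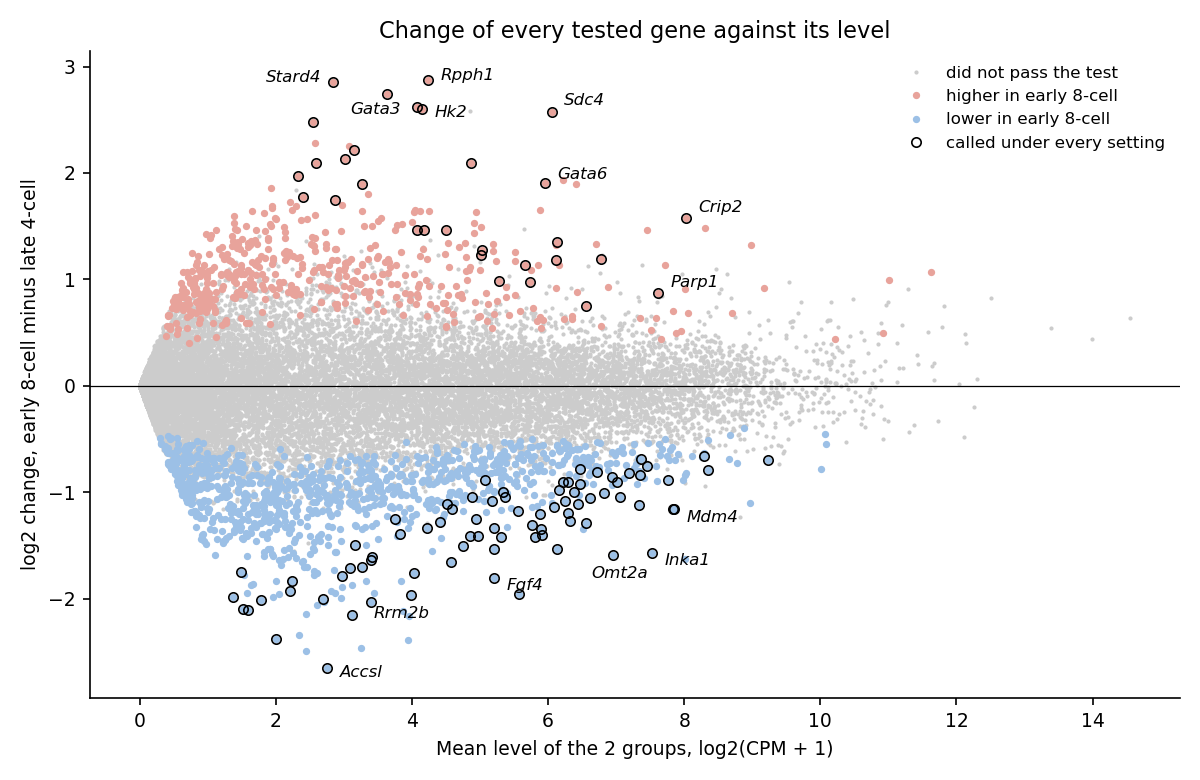
Change of every tested gene (vertical axis, log2(CPM + 1) in early 8-cell minus late 4-cell libraries) against its mean level in both groups (horizontal axis, log2(CPM + 1)). Coloured points are the 491 genes higher and the 1010 genes lower in early 8-cell embryos, and black circles mark the 109 genes called in all 19 settings.

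Promoter windows are printed for 4 of the genes described further on. The rises are Hk2, a hexokinase gene, and Amotl2, a YAP-binding angiomotin gene. The falls are Fgf4, a growth factor gene, and Oog1, an oocyte gene. Of the 12 largest rises, Hk2 and Amotl2 are the only genes whose windows hold a match to the motifs searched. Each window has 300 bases around the annotated start, from RefSeq on GRCm38.p6, printed 5′ to 3′ on the gene's strand. Capitals mark matches, on either strand, to the core motif of TEAD factors (GGAATG) or of KLF factors (GGGTGTG); the NR5A2 motif (AAGGTCA) was searched as well. The windows lie at chr6:82774405-82774704 (minus strand) for Hk2, chr9:102717554-102717853 (plus) for Amotl2, chr7:144861136-144861435 (plus) for Fgf4 and chr12:87602415-87602714 (plus) for Oog1.
Hk2: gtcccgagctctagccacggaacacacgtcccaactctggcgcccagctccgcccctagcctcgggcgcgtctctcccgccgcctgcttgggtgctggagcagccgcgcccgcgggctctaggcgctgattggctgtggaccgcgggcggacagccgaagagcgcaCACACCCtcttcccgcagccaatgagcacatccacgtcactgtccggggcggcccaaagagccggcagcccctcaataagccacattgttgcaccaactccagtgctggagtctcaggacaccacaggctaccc
Amotl2: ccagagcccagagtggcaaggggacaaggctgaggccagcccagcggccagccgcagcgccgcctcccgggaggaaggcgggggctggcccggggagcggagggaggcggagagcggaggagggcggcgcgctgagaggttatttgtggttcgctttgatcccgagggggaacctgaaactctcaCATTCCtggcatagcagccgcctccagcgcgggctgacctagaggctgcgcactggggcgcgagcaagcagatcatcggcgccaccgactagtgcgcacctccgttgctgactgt
Fgf4: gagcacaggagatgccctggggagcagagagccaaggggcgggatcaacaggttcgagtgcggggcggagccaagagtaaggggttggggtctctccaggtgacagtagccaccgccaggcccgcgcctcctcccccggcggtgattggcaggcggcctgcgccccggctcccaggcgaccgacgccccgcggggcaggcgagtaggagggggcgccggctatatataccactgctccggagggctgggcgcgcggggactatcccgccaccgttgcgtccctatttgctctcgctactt
Oog1: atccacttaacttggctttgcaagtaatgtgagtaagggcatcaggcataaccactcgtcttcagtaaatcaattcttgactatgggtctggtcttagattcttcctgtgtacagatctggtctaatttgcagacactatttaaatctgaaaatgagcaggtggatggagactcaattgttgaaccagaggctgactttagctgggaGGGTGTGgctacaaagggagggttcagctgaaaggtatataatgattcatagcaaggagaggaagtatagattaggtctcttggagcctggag
Hk2 has a KLF match, Amotl2 a TEAD match and Oog1 a KLF match, while the Fgf4 window holds none of the 3 motifs. Of the 12 largest rises, 7 had a window in the table, of which 1 held the TEAD motif, 1 the KLF motif and none the NR5A2 motif; of the 12 largest falls, 9 had a window, with 1, 1 and none. Of the 30 core rises, 18 had a window, of which 0 held the TEAD motif, 2 the KLF motif and 1 the NR5A2 motif. Of the 79 core falls, 59 had a window, with 9, 8 and 4. Among all 32851 windows, 14.7% held the TEAD motif, 7.95% the KLF motif and 4.72% the NR5A2 motif. These shares are per window. A gene was counted above if any of its windows matched, and some genes have more than 1, so the measures are not alike. A match is a stretch of letters, and no binding was measured.

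Among transcription factors, Gata3 and Gata6 rose together. Gata3, a trophectoderm regulator (chromosome 2, 9857078 to 9890034, GRCm38), read 34.6, 31.5 and 17.8 CPM in early 8-cell libraries, against 4.40, 5.24, 3.19 and 2.04 CPM in late 4-cell libraries. The lowest early 8-cell library lay well above the highest late 4-cell library. Its log2 change was 2.62 ± 0.32 (SE, adjusted p = 6.81e-07). Gata6, a regulator of primitive endoderm (chromosome 18, 11052064 to 11085635), read 80.7, 93.5 and 116 CPM in early 8-cell libraries, against 31.4, 27.4, 19.5 and 22.4 CPM in late 4-cell libraries. Again the groups did not overlap, as in 13.4% of all genes tested, and the log2 change was 1.91 ± 0.24 (SE, adjusted p = 7.54e-07). Both were called in every setting, as were Tbx20, a T-box factor best known from the heart, at 12.1 ± 0.95 CPM in early 8-cell and 2.10 ± 1.02 CPM in late 4-cell libraries, and Msc, a basic helix-loop-helix factor, at 6.98 ± 2.50 CPM in early 8-cell and 0.977 ± 0.202 CPM in late 4-cell libraries (SD, n = 3 and 4).

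The 2 GATA factors had different courses around this step. Gata3 was at 35.5 CPM in early 2-cell embryos (34 h), lay at 2.31 CPM in early 4-cell embryos, and after the step averaged 66.9 CPM in late 8-cell, 346 CPM in early 32-cell and 1037 CPM in blastocyst embryos. Gata6 averaged 9.36 CPM at the early 4-cell stage and 123 CPM at the late 8-cell stage, then 43.8 CPM in early 16-cell and 20.0 CPM in blastocyst embryos. The step thus took Gata6 near the top of its course and left Gata3 far below its own.

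**Figure D2:**
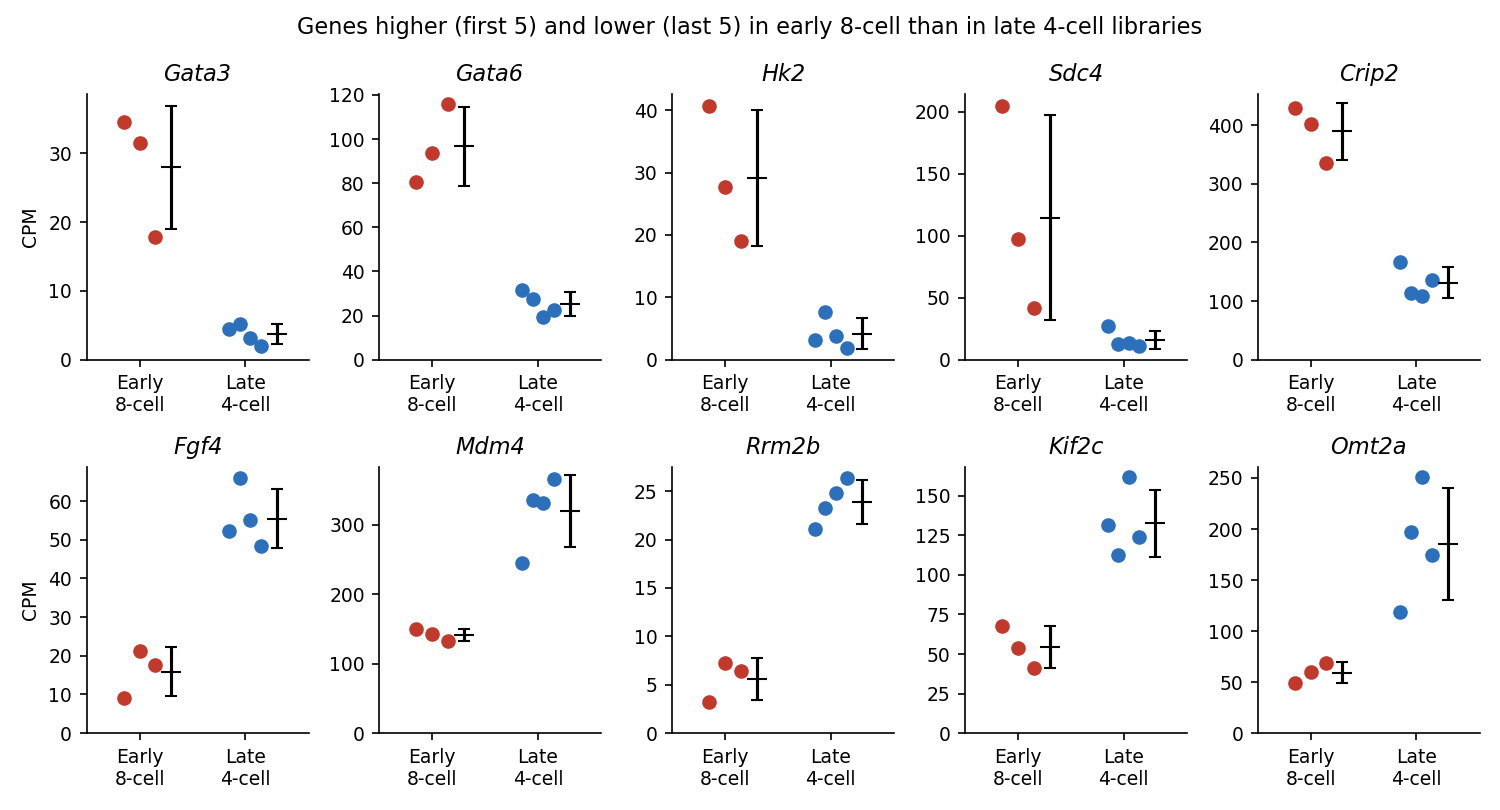
CPM of 10 genes in each library, with early 8-cell libraries in red on the left, late 4-cell libraries in blue on the right, and the mean ± SD beside each group (n = 3 and 4). The top row holds genes higher and the bottom row genes lower in early 8-cell embryos. The genes were picked from the 109 called in all 19 settings, none of which overlaps, so the lack of overlap in every panel follows from the choice. Sdc4 has the widest spread, from 41.7 to 205 CPM in early 8-cell libraries.

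Other lineage regulators moved less or did not pass the test. For 23 trophectoderm factors and markers tested, the median log2 change was 0.32, against -0.03 over all genes tested. Among them 3 rose (13%, against 2.44% of all genes tested) and none fell. Of these, Krt8, a keratin of trophectoderm, averaged 6.03 CPM in early 8-cell and 1.89 CPM in late 4-cell libraries, with overlapping groups and an adjusted p of 0.00229, or 0.151 with only the 7 libraries in the fit. Tead4, the DNA-binding partner of YAP in trophectoderm, averaged 277 CPM in early 8-cell and 179 CPM in late 4-cell libraries (log2 change 0.70, adjusted p = 0.0396). That call ended when late 4-cell library 3 or 4 or early 8-cell library 1 or 2 was left out, with adjusted p between 0.0608 and 0.250. Klf5 read 215 to 279 CPM in early 8-cell and 74.3 to 192 CPM in late 4-cell libraries, which did not overlap, yet its adjusted p was 0.0753; it passed without late 4-cell library 1 or 2 (0.0391 to 0.0406). Cdx2 was at 0.0729 to 0.2998 CPM in early 8-cell and at most 0.126 CPM in late 4-cell libraries, under the level at which a change could be seen. Eomes read 0 to 3.80 CPM in early 8-cell and 0.122 to 1.39 CPM in late 4-cell libraries (adjusted p = 0.393), and passed without early 8-cell library 2, where it was listed at 0 (adjusted p = 0.0343).

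Of 27 pluripotency and inner cell mass genes tested, 2 rose and 3 fell (18.5% called, against 7.45% of all genes tested). Fgf4, the ligand by which inner cell mass cells signal to primitive endoderm precursors (chromosome 7, 144847367 to 144865243), read 9.02, 21.1 and 17.7 CPM in early 8-cell libraries, against 52.3, 66.0, 55.2 and 48.4 CPM in late 4-cell libraries. Every early 8-cell library lay below every late 4-cell library, with a log2 change of -1.80 ± 0.27 (SE, adjusted p = 2.02e-05) that held in every setting. Before the step it had averaged 71.4 CPM in very late 2-cell and 48.1 CPM in early 4-cell embryos, and after it 5.22 CPM in late 8-cell embryos. The other 4 calls, named after their values were seen, were rises of the transcription factors Tfcp2l1 (log2 change 1.20, adjusted p = 0.00753) and Utf1 (0.85, adjusted p = 0.0340) and falls of the factor Prdm14 (-1.03, adjusted p = 0.0371) and the cytokine receptor subunit Il6st (-1.21, adjusted p = 0.000938). Il6st kept its call whichever library was left out, but had an adjusted p of 0.150 with only the 7 libraries. The call of Tfcp2l1 ended without late 4-cell library 4 or early 8-cell library 3 (adjusted p 0.0506 to 0.120). That of Prdm14 ended without late 4-cell library 3 or 4 or early 8-cell library 1 or 3 (0.0796 to 0.187), and that of Utf1 without late 4-cell library 1, 2 or 4 or any one early 8-cell library (0.0539 to 0.0884). The factors Pou5f1, Nanog, Sox2, Nr5a2 and Tfap2c did not pass. Pou5f1 averaged 65.4 CPM in early 8-cell and 40.0 CPM in late 4-cell libraries (adjusted p = 0.0969, and 0.0326 without late 4-cell library 4). Nanog averaged 27.5 CPM in early 8-cell and 32.5 CPM in late 4-cell libraries, and Sox2 was under 1 CPM on average in both (adjusted p = 0.614 and 0.701). Nr5a2 (246 and 263 CPM) and Tfap2c (107 and 135 CPM, early 8-cell first) had adjusted p of 0.924 and 0.389.

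Of 19 primitive endoderm genes tested, 5 rose (26.3%, against 2.44% of all genes tested) and none fell, with a median log2 change of 0.06. Only Gata6 and Lamb1 kept their calls whichever library was left out. The rises of Lamb1 and Col4a1 are also counted among the integrin and extracellular matrix genes below. Beside Gata6, Lamb1, a laminin chain of basement membrane, averaged 4.61 CPM in early 8-cell and 0.935 CPM in late 4-cell libraries (log2 change 1.52 ± 0.31 SE, adjusted p = 0.00101, or 0.0632 with only the 7 libraries). Fgfr2, a receptor for FGF4, read 41.1 to 43.8 CPM in early 8-cell and 17.1 to 31.3 CPM in late 4-cell libraries without overlap (log2 change 0.87, adjusted p = 0.0383). Leaving out late 4-cell library 1 or 2, or any one of the 3 early 8-cell libraries, ended that call (adjusted p between 0.0772 and 0.111).

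A cell surface gene was among the largest rises. Sdc4, the heparan sulfate proteoglycan syndecan 4 (chromosome 2, 164424247 to 164443887), read 205, 97.1 and 41.7 CPM in early 8-cell libraries, against 26.8, 12.8, 13.1 and 11.02 CPM in late 4-cell libraries (log2 change 2.58 ± 0.47 SE, adjusted p = 0.000319). The early 8-cell libraries spread widely for Sdc4 but all exceeded the late 4-cell ones. The gene was called in every setting, and it averaged 819 CPM in late 8-cell embryos. Of 23 integrin and extracellular matrix genes tested, 5 rose and 1 fell (26.1% called, against 7.45% of all genes tested). None of these calls held with only the 7 libraries in the fit. Only those of Lama5 and Lamb1 held whichever library was left out. Lama5, a laminin chain, was higher without overlap, at 5.23 CPM in early 8-cell and 1.66 CPM in late 4-cell libraries (adjusted p = 0.00186, or 0.0731 with only the 7 libraries).

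Of 33 adherens junction and polarity genes tested, 1 rose and 3 fell (12.1% called, against 7.45% of all genes tested), and each of these 4 calls ended when at least 1 single library was left out. Cdh1, which encodes E-cadherin, the adhesion molecule of compaction, read 32.5, 43.1 and 36.8 CPM in early 8-cell libraries, against 28.5, 18.2, 22.6 and 16.9 CPM in late 4-cell libraries. The groups did not overlap and the log2 change was 0.79 ± 0.24 (SE, adjusted p = 0.0314). It did not pass without late 4-cell library 2 or 4 or early 8-cell library 2 or 3 (0.0709 to 0.126). Cdh1 averaged 4.97 CPM in early 4-cell embryos, and means after the step ran from 52.0 CPM at the late 8-cell stage to 92.2 CPM in blastocysts. Its partner Ctnnb1, beta-catenin, averaged 75.2 CPM in early 8-cell and 60.2 CPM in late 4-cell libraries (adjusted p = 0.415). The polarity factor Pard6b (4.58 and 3.38 CPM), the membrane linker Ezr (2.12 and 1.16 CPM) and the tight junction scaffold Tjp1 (26.5 and 20.6 CPM, early 8-cell first) had adjusted p of 0.504, 0.524 and 0.341. Of 22 tight junction and desmosome genes tested, 1 was called (4.55%, against 7.45% of all genes tested). This was Perp, a desmosome protein, which averaged 14.7 CPM in early 8-cell and 4.49 CPM in late 4-cell libraries with overlap (adjusted p = 0.00122, or 0.104 with only the 7 libraries).

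Of 36 actomyosin genes tested, 4 rose (11.1%, against 2.44% of all genes tested) and none fell. A positive log2 change was seen in 27 (75%, against 41.6% of all genes tested), with a median of 0.25. Tpm4, a tropomyosin that coats actin filaments, read 60.3, 74.9 and 68.5 CPM in early 8-cell libraries, against 34.2, 28.0, 39.3 and 22.5 CPM in late 4-cell libraries. The groups were clearly apart, with a log2 change of 1.13 ± 0.23 (SE, adjusted p = 0.00135), and the gene was called in every setting. Actn1, the crosslinker alpha-actinin 1, averaged 10.1 CPM in early 8-cell and 4.07 CPM in late 4-cell libraries (adjusted p = 0.00991, or 0.0799 with only the 7 libraries). Crip2, a LIM domain protein outside these lists, was the most abundant rise called in every setting, at 429, 403 and 336 CPM in early 8-cell libraries, against 166, 113, 109 and 136 CPM in late 4-cell libraries.

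Of 22 Hippo pathway genes tested, 3 rose (13.6%, against 2.44% of all genes tested) and none fell, with a median log2 change of -0.02. Without late 4-cell library 4, 1 rose and the median was -0.09. Amotl2 alone kept its call whichever library was left out. Amotl2, an angiomotin that binds YAP, read 32.5, 13.9 and 25.0 CPM in early 8-cell libraries, against 9.39, 10.3, 4.67 and 3.66 CPM in late 4-cell libraries (log2 change 1.65 ± 0.29 SE, adjusted p = 0.000189). The groups were separated by a narrow margin, and with only the 7 libraries the adjusted p was 0.0601. Yap1, the coactivator at the end of the pathway, averaged 31.5 CPM in early 8-cell and 39.1 CPM in late 4-cell libraries (adjusted p = 0.415).

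Of 35 mitosis genes tested, 3 fell and none rose (8.57% called, against 7.45% of all genes tested). Only 2 of the 35 had a positive log2 change (median -0.32). Under median-ratio scaling, quantile scaling and removal of the length trend, 4, 5 and 4 were positive. Kif11, the kinesin that pushes spindle poles apart, read 89.6, 101 and 74.3 CPM in early 8-cell libraries, against 183, 136, 164 and 184 CPM in late 4-cell libraries (log2 change -0.91 ± 0.21 SE, adjusted p = 0.00484). Kif2c, a kinesin that depolymerises microtubules at centromeres, was not in the list and was named after its values were seen. It read 67.8, 53.6 and 41.3 CPM in early 8-cell libraries, against 132, 112, 162 and 124 CPM in late 4-cell libraries (log2 change -1.29 ± 0.24 SE, adjusted p = 0.000369). Both pairs of groups were apart, and both calls held in every setting. Cenpf, a kinetochore protein, averaged 9.84 CPM in early 8-cell and 22.1 CPM in late 4-cell libraries (adjusted p = 0.000761, or 0.0602 with only the 7 libraries).

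The abundant drivers of mitosis Ccnb1, Ccna2 and Cdk1 did not pass the test. Ccnb1, cyclin B1, read 2970.0 to 3016 CPM in early 8-cell and 3193 to 4786 CPM in late 4-cell libraries without overlap (adjusted p = 0.502). Ccna2, cyclin A2, read 804 to 850 CPM in early 8-cell and 919 to 1346 CPM in late 4-cell libraries (adjusted p = 0.168), again without overlap. Cdk1 averaged 275 CPM in early 8-cell and 371 CPM in late 4-cell libraries, with overlap (adjusted p = 0.172). Of 44 genes of G1 and DNA replication tested, 1 rose and 1 fell (4.55% called, against 7.45% of all genes tested). The riser, Cdk6, a kinase of G1, averaged 8.35 CPM in early 8-cell and 2.83 CPM in late 4-cell libraries (adjusted p = 0.00492, or 0.110 with only the 7 libraries).

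Several genes of chromosome replication and cohesion outside those lists fell in every setting. Dbf4, which activates the CDC7 kinase at replication origins, read 126, 133 and 127 CPM in early 8-cell libraries, against 194, 218, 242 and 220 CPM in late 4-cell libraries (log2 change -0.76 ± 0.13 SE, adjusted p = 0.000122). Hells, a chromatin remodelling helicase, averaged 86.0 CPM in early 8-cell and 157 CPM in late 4-cell libraries. Esco1, an acetyltransferase of cohesin, averaged 62.5 CPM in early 8-cell and 132 CPM in late 4-cell libraries. Casp8ap2, which takes part in histone gene expression, averaged 53.2 CPM in early 8-cell and 118 CPM in late 4-cell libraries. In none of these 4 genes did the groups overlap, which is so for all 109 core genes and for 13.4% of all genes tested. The 4 were named after their values were seen, and no theme was tested.

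Of 22 listed p53 targets and cell cycle inhibitors tested, 4 rose (18.2%, against 2.44% of all genes tested) and none fell. None of the 4 passed with only the 7 libraries in the fit. The list does not hold every p53 target, and Rrm2b, a p53-inducible gene outside it that is described below, fell. The median log2 change of the list was 0.06. Cdkn1a, the CDK inhibitor p21, read 58.1, 67.3 and 60.4 CPM in early 8-cell libraries, against 11.9, 35.3, 29.4 and 32.4 CPM in late 4-cell libraries (log2 change 1.26 ± 0.25 SE, adjusted p = 0.00103). The groups did not overlap, but with only the 7 libraries the adjusted p was 0.0779. Phlda3, an inhibitor of AKT, averaged 7.10 CPM in early 8-cell and 1.87 CPM in late 4-cell libraries, and Gadd45g, a stress sensor, 3.81 CPM in early 8-cell and 0.736 CPM in late 4-cell libraries (adjusted p = 0.00254 and 0.00737, or 0.0512 and 0.0518 with only the 7 libraries). These calls held whichever library was left out.

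Mdm4, which binds p53 and restrains it, is outside that list and was named after its values were seen. It read 149, 142 and 132 CPM in early 8-cell libraries, against 246, 335, 331 and 366 CPM in late 4-cell libraries (log2 change -1.16 ± 0.15 SE, adjusted p = 9.16e-07). The groups were far apart. Rrm2b, the p53-inducible small subunit of ribonucleotide reductase (chromosome 15, 37923952 to 37961318), read 3.17, 7.26 and 6.44 CPM in early 8-cell libraries, against 21.1, 23.3, 24.9 and 26.3 CPM in late 4-cell libraries (log2 change -1.97 ± 0.19 SE, adjusted p = 1.94e-09). Its late 4-cell libraries were tightly grouped above all early 8-cell ones. Mdm4 had stood at 3038 CPM in very late 2-cell and 1139 CPM in early 4-cell embryos, and continued to 69.8 CPM in late 8-cell embryos. Bok, a BCL2 family member, averaged 69.3 CPM in early 8-cell and 34.8 CPM in late 4-cell libraries, and Parp1, the poly(ADP-ribose) polymerase of DNA repair, 251 CPM in early 8-cell and 138 CPM in late 4-cell libraries. The calls of these 4 genes held in every setting.

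Of 23 glycolysis genes tested, 3 rose and 1 fell (17.4% called, against 7.45% of all genes tested). The median log2 change of the list was 0.11. Hk2, hexokinase 2, which phosphorylates glucose at the entry to glycolysis (chromosome 6, 82725025 to 82774454), read 40.7, 27.7 and 19.1 CPM in early 8-cell libraries, against 3.21, 7.63, 3.86 and 1.88 CPM in late 4-cell libraries. All 3 early 8-cell libraries were above all late 4-cell ones, with a log2 change of 2.605 ± 0.31 (SE, adjusted p = 4.09e-07). Before the step Hk2 averaged 1.80 to 5.60 CPM in the 5 earlier groups, and after it 32.2 CPM in late 8-cell and 165 CPM in blastocyst embryos. Fbp2, a fructose bisphosphatase, which runs a step of the pathway in reverse, read 134, 156 and 161 CPM in early 8-cell libraries, against 54.8, 51.8, 62.4 and 101 CPM in late 4-cell libraries (log2 change 1.19 ± 0.21 SE, adjusted p = 0.000171). Both calls held in every setting, and neither gene's groups overlapped.

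Among other genes of fuel handling a few passed. Of 32 genes of pyruvate dehydrogenase and the TCA cycle tested, 1 rose and 2 fell (9.38% called, against 7.45% of all genes tested). Each of these calls ended when at least 1 single library was left out. Ldha, lactate dehydrogenase A, averaged 17.6 CPM in early 8-cell and 12.2 CPM in late 4-cell libraries and did not pass (adjusted p = 0.358). Ldhb was lower, at 5.44 CPM in early 8-cell and 12.9 CPM in late 4-cell libraries with overlap (adjusted p = 0.0204), a call that ended without late 4-cell library 2 or 4 or early 8-cell library 1 or 3 (0.0576 to 0.0900). None of 12 glucose and monocarboxylate transporters passed, against 7.45% of all genes tested, and the list is small. The lactate and pyruvate carrier Slc16a1 averaged 28.3 CPM in early 8-cell and 18.3 CPM in late 4-cell libraries (adjusted p = 0.190). The glucose carrier Slc2a1 was under 1 CPM on average in both groups (adjusted p = 0.735). The mitochondrial pyruvate carrier subunits Mpc1 (808 and 749 CPM) and Mpc2 (619 and 561 CPM) and the kinase Pdk1 (3.47 and 4.07 CPM, early 8-cell first) had adjusted p of 0.836, 0.744 and 0.754. Ppm1k, a mitochondrial phosphatase that switches on branched-chain amino acid breakdown, did rise, at 64.7, 47.5 and 26.4 CPM in early 8-cell libraries, against 12.1, 11.7, 12.7 and 4.12 CPM in late 4-cell libraries (log2 change 2.10 ± 0.34 SE, adjusted p = 4.99e-05). Stard4, a cholesterol carrier, was higher too, at 9.32, 15.9 and 9.19 CPM in early 8-cell libraries, against 0.122, 0.252, 0.987 and 1.81 CPM in late 4-cell libraries. Both calls held in every setting.

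None of 72 nuclear genes of the respiratory chain passed (median log2 change 0.14), and none of 31 proteasome genes, against 7.45% of all genes tested. Of 79 cytosolic ribosomal protein genes, 1 rose (1.27%, against 2.44% of all genes tested). A positive change was seen in 67 (84.8%, against 41.6% of all genes tested), with a median of 0.16. All 13 mitochondrially encoded genes had a positive change and none passed (median 0.40). Their summed level was 37317 to 53482 CPM in early 8-cell and 7921 to 50959 CPM in late 4-cell libraries, where library 4 was the low one; without it the median was -0.11 and 4 of 13 were positive.

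Growth factor genes changed singly. Of 29 tested, 3 rose and 2 fell (17.2% called, against 7.45% of all genes tested). Pdgfa, a ligand of the PDGF receptor of primitive endoderm, read 26.8, 28.1 and 20.9 CPM in early 8-cell libraries, against 10.002, 12.4, 7.99 and 5.02 CPM in late 4-cell libraries (log2 change 1.46 ± 0.27 SE, adjusted p = 0.000319). The groups did not overlap and the call held in every setting. Of 16 immediate early genes tested, 2 rose (12.5%, against 2.44% of all genes tested). Ier2 averaged 19.5 CPM in early 8-cell and 5.995 CPM in late 4-cell libraries (adjusted p = 0.00656). Klf10 averaged 41.7 CPM in early 8-cell and 16.3 CPM in late 4-cell libraries (adjusted p = 0.00911, or 0.0673 with only the 7 libraries). Myc, a growth regulator, read 39.035, 42.5 and 34.0 CPM in early 8-cell libraries, against 79.7, 64.3, 69.2 and 110 CPM in late 4-cell libraries. Its groups did not overlap, but the adjusted p was 0.0703, and 0.0410 with only the 7 libraries. None of 13 genes of the MYC network passed, against 7.45% of all genes tested, and the list is small.

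Another 3 signalling genes fell in every setting, all without overlap, as is so for all 109 core genes. Apc, a scaffold of the complex that degrades beta-catenin, averaged 17.3 CPM in early 8-cell and 42.0 CPM in late 4-cell libraries. Prkcd, protein kinase C delta, averaged 140 CPM in early 8-cell and 313 CPM in late 4-cell libraries, and Inka1, an inhibitor of the kinase PAK4, read 111, 104 and 65.3 CPM in early 8-cell libraries, against 259, 245, 266 and 319 CPM in late 4-cell libraries. For Inka1 the log2 change was -1.57 ± 0.23 (SE, adjusted p = 1.53e-05). The basic leucine zipper factors Atf1 and Atf2 fell as well, Atf1 to 150 CPM in early 8-cell against 281 CPM in late 4-cell libraries, and Atf2 to 85.4 CPM in early 8-cell against 177 CPM in late 4-cell libraries. Ptbp1, a splicing regulator, averaged 117 CPM in early 8-cell and 69.5 CPM in late 4-cell libraries, and Ap2a2, a subunit of the endocytic adaptor AP-2, 98.4 CPM in early 8-cell and 39.4 CPM in late 4-cell libraries; both were higher in every setting.

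Of 39 maternal transcripts tested, those stored by the oocyte, 12 fell (30.8%, against 5.01% of all genes tested) and 1 rose. Their median log2 change was -0.66, against -0.03 over all genes tested. Of the falls, 8 held whichever library was left out. Omt2a, an oocyte maturation transcript (chromosome 9, 78311972 to 78314796), read 49.1, 60.2 and 68.8 CPM in early 8-cell libraries, against 119, 197, 251 and 174 CPM in late 4-cell libraries (log2 change -1.59 ± 0.35 SE, adjusted p = 0.00239). Oog1, an oogenesin, read 11.9, 9.62 and 9.73 CPM in early 8-cell libraries, against 31.7, 35.2, 30.4 and 42.8 CPM in late 4-cell libraries (log2 change -1.65 ± 0.31 SE, adjusted p = 0.000446). Both groups were apart in both genes; the genes have near-identical relatives, so reads may be split between copies and the levels are uncertain. Accsl, listed with them, was at 1.26, 0.150 and 1.02 CPM in early 8-cell libraries, against 6.88, 7.32, 18.0 and 10.6 CPM in late 4-cell libraries, the largest fall called in every setting.

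Other maternal genes fell with less certainty. Btg4, the adaptor that brings maternal mRNAs to deadenylation, averaged 6.08 CPM in early 8-cell and 13.9 CPM in late 4-cell libraries (adjusted p = 0.00389, or 0.0611 with only the 7 libraries). Zp1, a zona pellucida protein, averaged 0.618 CPM in early 8-cell and 7.46 CPM in late 4-cell libraries with overlap (adjusted p = 1.58e-05, or 0.0678 with only the 7 libraries). Omt2a itself had stood at 8427 CPM in mid 2-cell, 2426 CPM in very late 2-cell and 980 CPM in early 4-cell embryos. Of 32 transcripts of the 2-cell burst of genome activation, 6 fell (18.8%, against 5.01% of all genes tested) and none rose. Their median log2 change was -0.26. None of the 32 passed with only the 7 libraries in the fit, and only Obox5 kept its call whichever library was left out. Without late 4-cell library 4, 4 fell and 1 rose. The summed level of the list was higher in early 8-cell libraries (23716 to 24273 CPM) than in late 4-cell libraries (18558 to 20946 CPM). Zscan4d, one of that burst, read 0, 0 and 4.31 CPM in early 8-cell libraries, against 4.37, 4.62, 1.596 and 2.12 CPM in late 4-cell libraries (adjusted p = 0.0321); it belongs to a near-identical family, and the call ended without late 4-cell library 1 or 2 or early 8-cell library 1 or 2 (0.0890 to 0.282).

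**Figure D3:**
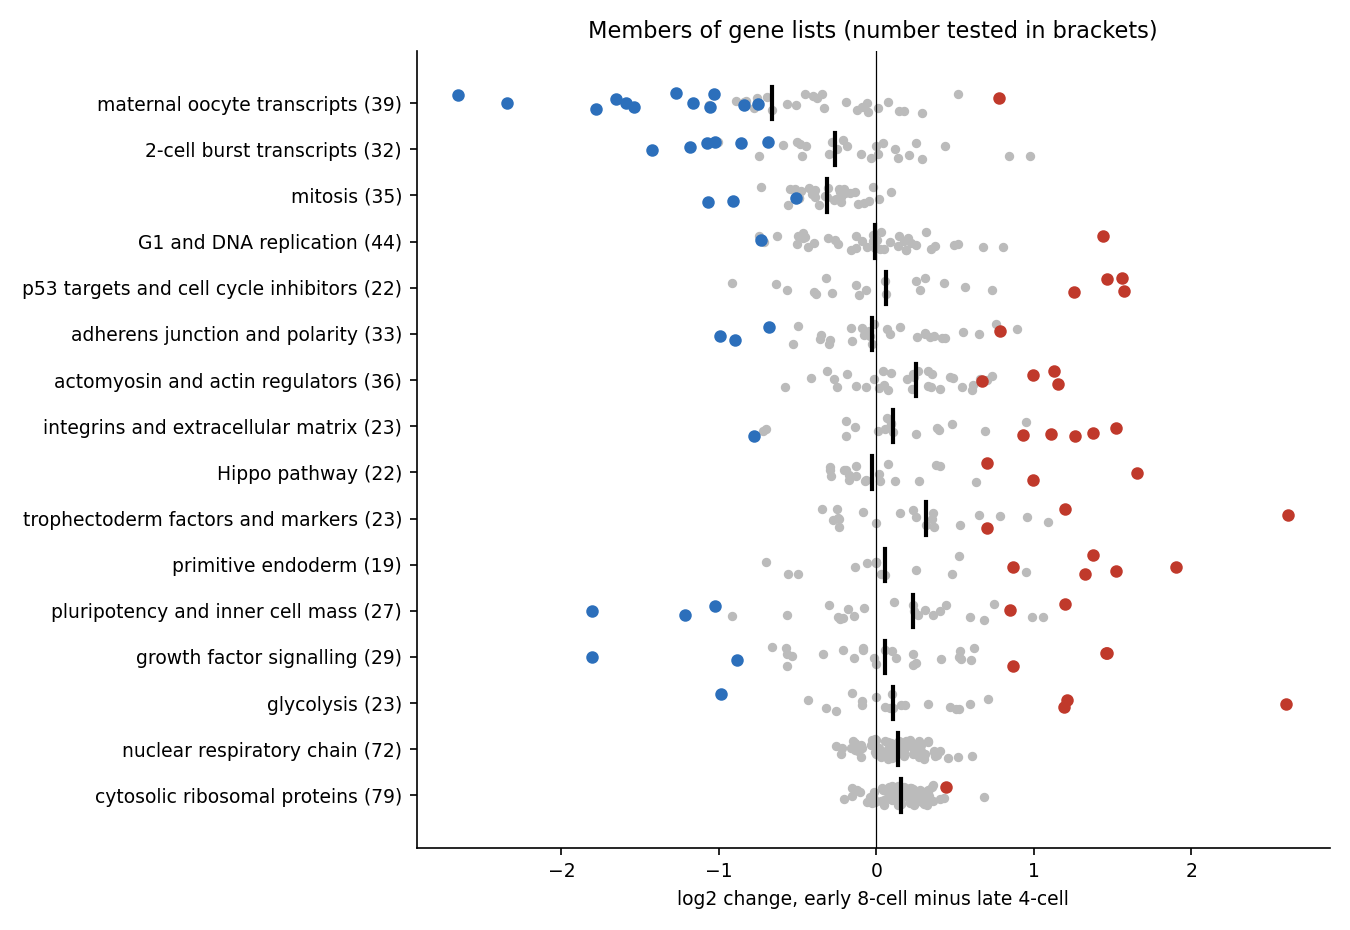
Change of each tested member of 16 gene lists (horizontal axis, log2(CPM + 1) in early 8-cell minus late 4-cell libraries). Red and blue points passed the test as higher or lower in early 8-cell embryos, grey points did not, and black bars are list medians. Maternal transcripts have the lowest median, -0.66, and trophectoderm genes the highest of the lists drawn, 0.32.

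Other large changes were found by a rule of size, which took 12 rises and 12 falls among called genes that averaged 20 CPM or more in one group and did not overlap. Rpph1, the RNA of ribonuclease P, led the rises, at 17.7, 38.7 and 40.0 CPM in early 8-cell libraries, against 2.22, 5.67, 5.12 and 1.51 CPM in late 4-cell libraries; it is a transcript without a poly(A) tail, which this assay captures poorly. Pax6, a homeodomain factor known from the eye, rose by a log2 change of 1.64 and Gm45629 also by 1.64 (adjusted p = 0.000761 and 0.00189, or 0.0731 and 0.119 with only the 7 libraries). Tcf7l2, the WNT pathway's DNA-binding factor, averaged 126 CPM in early 8-cell and 42.3 CPM in late 4-cell libraries, but its call ended without late 4-cell library 4 or early 8-cell library 1 (adjusted p 0.0559 to 0.0915). Skil, a repressor of TGF-beta signalling, averaged 85.3 CPM in early 8-cell and 30.2 CPM in late 4-cell libraries, and did not pass without late 4-cell library 4 (adjusted p = 0.0539).

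Among the falls, B020004C17Rik, a long noncoding RNA, read 30.2, 15.8 and 12.5 CPM in early 8-cell libraries, against 77.6, 70.8, 73.8 and 71.4 CPM in late 4-cell libraries. Zfp229, a zinc finger protein, averaged 6.39 CPM in early 8-cell and 24.2 CPM in late 4-cell libraries, and Ammecr1l 35.8 CPM in early 8-cell and 103 CPM in late 4-cell libraries. These 3 were called in every setting. Tgds, a sugar nucleotide dehydratase, had a log2 change of -1.83 and the pseudogene Gm1995 one of -1.55. Both missed the threshold with only the 7 libraries and a replicate block, and Tgds also with only those libraries and without late 4-cell library 4. Gm7903 averaged 5.61 CPM in early 8-cell and 23.4 CPM in late 4-cell libraries and did not pass without early 8-cell library 1 (adjusted p = 0.0590). Omt2b, the neighbour and relative of Omt2a, averaged 122 CPM in early 8-cell and 391 CPM in late 4-cell libraries (adjusted p = 0.0342). Leaving out late 4-cell library 2, 3 or 4 or early 8-cell library 1 or 3 ended its call (0.0629 to 0.145).

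**Figure D4:**
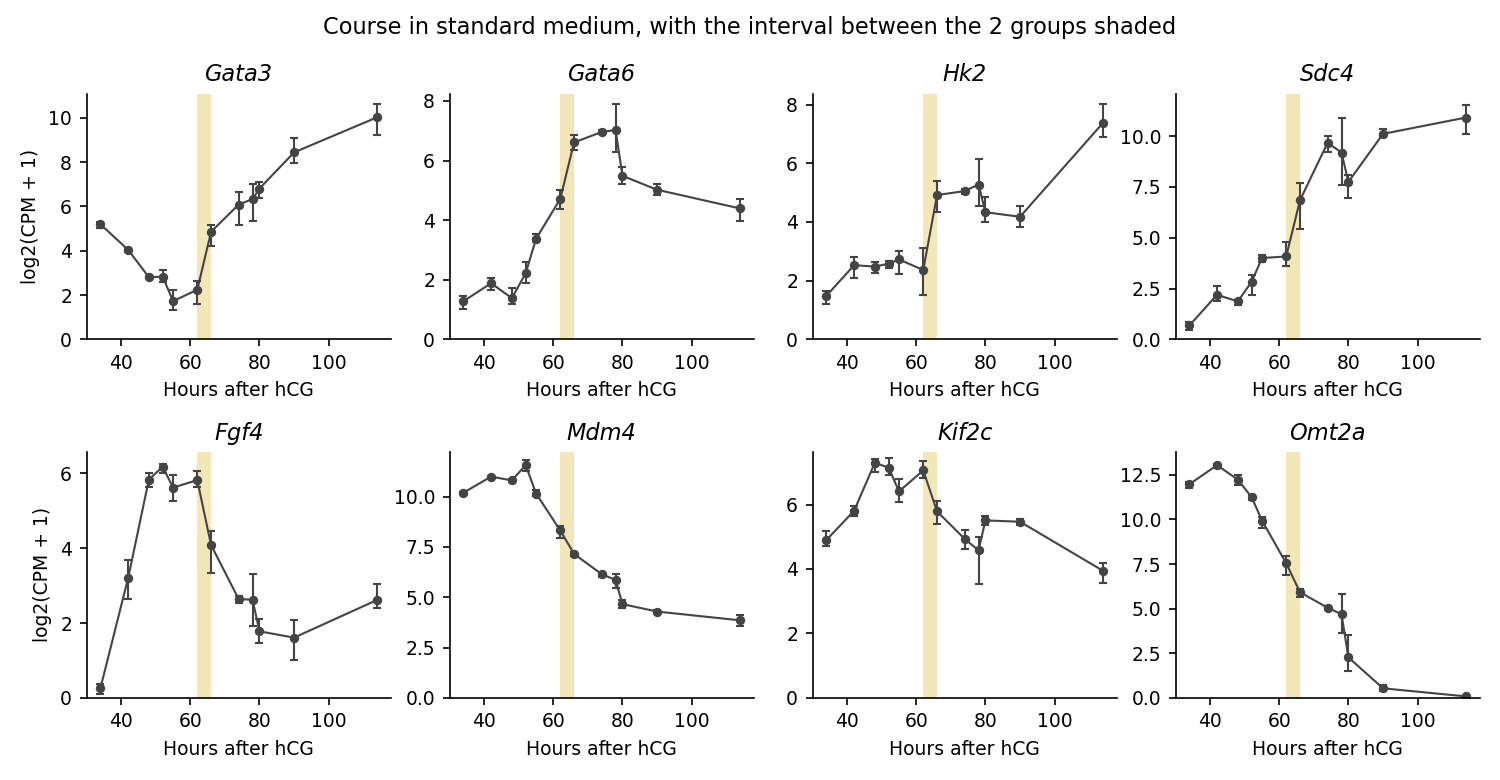
Course of 8 genes over the 12 groups in standard medium (horizontal axis, hours after hCG; vertical axis, log2(CPM + 1)). Points are group means, bars run from the lowest to the highest library, and the shaded band spans 62 to 66 h. Gata3, Gata6, Hk2 and Sdc4 rise across the band, and Fgf4, Mdm4, Kif2c and Omt2a fall.

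The direction of the step was compared with groups on either side that share no library with it. These were late 8-cell (74 h, 2 libraries) and early 4-cell (55 h, 4 libraries) embryos. Both comparisons came from the same fit and shared each gene's estimate of spread, to which the libraries of the step contributed. A gene with a small estimate passes both tests more easily, so the shares that passed are not an independent check. Between late 8-cell and early 4-cell embryos, 16.6% of all genes tested were higher and 32.6% lower. Of the 491 genes higher across the step, 269 (54.8%) were higher in late 8-cell than in early 4-cell embryos, 54 were lower and 168 did not pass. Of the 1010 genes lower across the step, 836 (82.8%) were lower, 14 were higher and 160 did not pass. Of the 30 core rises, 27 were higher and none lower, and of the 79 core falls, 75 were lower and none higher. Ptbp1 was one of the 3 core rises that did not pass (log2 change -0.28, adjusted p = 0.202). Among the core falls Hells did not pass (log2 change -0.43, adjusted p = 0.143).

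**Figure D5:**
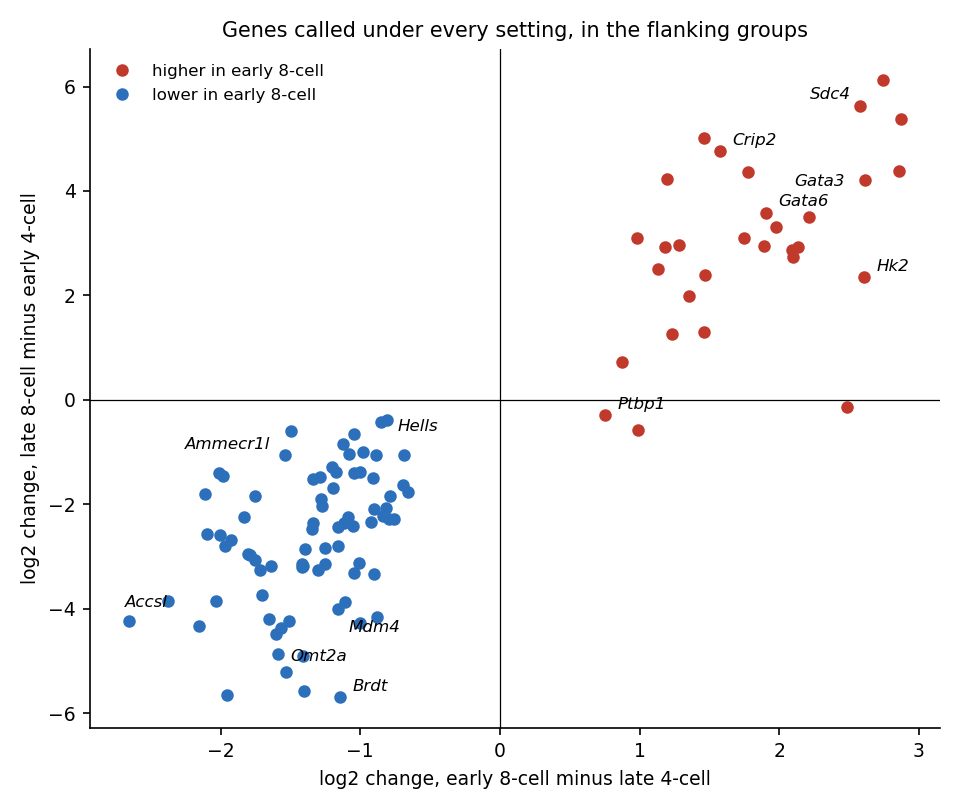
The 109 genes called in all 19 settings, with the log2 change of early 8-cell minus late 4-cell embryos on the horizontal axis and of late 8-cell minus early 4-cell embryos, which share no library with them, on the vertical axis. All 79 falls lie below 0 on both axes, and 27 of the 30 rises passed as higher on the vertical axis. Both comparisons shared each gene's estimate of spread.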

How the data were processed

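RNA was measured in 85 libraries, of which the 45 in standard medium were used. The deposited values are CPM made by the authors, with an added offset of 1e-04 that was subtracted here. STAR 2.6.1d and the mm10 build are named in the submitters' processing notes. The counting tool is not given in the sources used here. Of 91 columns, 85 were matched by name and 6 were not used. Of 37394 entries, 26 with numeric names (0.0733 to 0.194% of a library here) were left out, and 36810 of 37368 symbols matched GENCODE vM21 (GRCm38). The members and gene lists were chosen with earlier results of these data known.

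Depth was estimated from the most common low value of each library, taken as 1 read. Counting alone gives a relative SD of 17.3 to 27.0% at 1 CPM in these 7 libraries. Whole reads were not recovered (70.4 to 74.0% of values of at most 20 reads lay within 0.1 of a whole number), so no count test was run. Genes above 1 CPM in at least 3 libraries were tested as log2(CPM + 1), which understates changes of low genes, with limma 3.58.1 in R 4.3.3 (group means over 12 groups, moderated test with a mean trend, two-sided, Benjamini-Hochberg threshold 0.05) after a test on simulated data. Other steps used Python 3.11.15, numpy 2.4.6, pandas 2.3.3 and matplotlib 3.10.9.

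Genes named were 12 rises and 12 falls by size among called genes that averaged 20 CPM or more in one group without overlap, up to 4 members at 5 CPM of each list with at least 3 calls, and a fixed list of lineage, junction, metabolic and cell cycle genes. No gene went from at most 1 CPM in every library of one group to at least 5 CPM in every library of the other. List members whose call ended when 1 library was left out are mostly given as counts, and genes called in every setting were added after their values were seen. Of the listed genes, some symbols are not in the table and were not analysed here. One gene that the rule names is not reported here. Alternatives were another pseudocount, filters, scalings, groups in the fit, a replicate block, and leaving out each library.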

Additional observations from a re-analysis of the deposited data

Results flagged for a closer look

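Among 99 sets of 4 late 4-cell libraries examined, 5 had 1 library far from the other 3, where chance gives about 1 in 20. Sdc4 was highest in library 1, at 26.8 CPM, still below every early 8-cell library. Ppm1k was lowest in library 4, at 4.12 CPM, and Pou5f1 was highest in library 4, at 59.1 CPM, which lay inside the early 8-cell range. Cdx2 was detected in library 2 alone, at 0.126 CPM, and Mpc1 was lowest in library 3, at 659 CPM.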

How the results depend on the processing

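The 1501 calls became 380 (112 higher, 268 lower) with 4 groups in the fit, 219 (62 higher, 157 lower) with only the groups compared, 247 (74 higher, 173 lower) with these and a replicate block, and 277 (89 higher, 188 lower) with these but without late 4-cell library 4, an alternative added after seeing the data; each has fewer libraries to set the spread. Leaving out 1 library gave 1102 to 1500, and the other settings 1195 to 1541. The calls between late 8-cell and early 8-cell embryos, 1438, became 378, 144 and 328 in the first 3 of those fits, 618 (without late 8-cell library 2) to 1406 with 1 library left out, and 954 without late 8-cell library 1. The replicate block over 45 libraries gave 1329; same-numbered libraries did not deviate together (r of 0.18, -0.03 and -0.05), so the numbers are not taken as pairs.

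Of 94 genes tried, 71 were called and 30 of these lost the call somewhere, 9 outside the smaller fits. Only changes that had not passed reversed: Nr5a2 to 0.014 with the length trend removed and over -0.18 to 0.025 with 1 library left out, Pard6b over -0.0064 to 0.62, Sox2 over -0.28 to 0.54 and Slc2a1 over -0.13 to 0.71; the cause was not tested. The planned count test was not run, since whole reads were not recovered. Depth limits genes near 1 CPM.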

Other observations

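Germ cell genes were among the falls called in every setting. Brdt, a testis bromodomain protein, averaged 41.6 CPM in early 8-cell and 92.5 CPM in late 4-cell libraries, Tex15, which acts in male meiosis, 1.83 CPM in early 8-cell and 9.11 CPM in late 4-cell libraries, and Nanos2, an RNA-binding protein of spermatogonial stem cells, 0.0493 CPM in early 8-cell and 3.66 CPM in late 4-cell libraries. The groups did not overlap in these 3 genes, which is so for all 109 core genes and for 13.4% of all genes tested. Of 370 tested genes with a Zfp symbol, which are zinc finger genes, 38 (10.3%) were lower and 5 (1.35%) higher in early 8-cell embryos, against 5.01% lower and 2.44% higher among all genes tested. These genes were picked after their values were seen, and no test of the group was made.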
